A study of Anolis carolinensis with 142 samples.

Results

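The change of liver gene expression between midday and midnight was compared between male and female green anoles (*Anolis carolinensis*), small day-active lizards. The comparison used the 16 liver libraries titled Midday or Midnight, of 142 libraries in the series, with 4 animals in each of the 4 groups of sex and time. It asked whether the Midnight minus Midday change in males differed from that in females, and the change within each sex is given beside it. All animals were wild-caught adults of wild-type genotype (labelled WT), taken in the breeding season and assigned at random to a treatment. Midday males and Midday females were dissected between 12:48 and 13:45. Midnight males and Midnight females were dissected between 22:30 and 0:42, in the dark under a red torch. A further 8 liver libraries came from males and females under artificial light at night (ALAN), dissected in the same night hours, and entered none of these comparisons. The order of the sexes within a dissection period is not given in the labels, so sex and exact hour of dissection could not be separated.

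The vertebrate liver follows the day through its own cellular clock and through feeding, temperature and hormones, and genes of glucose, lipid and detoxification metabolism are among those known to cycle there. The liver also differs between the sexes in many animals. In egg-laying vertebrates the female liver makes yolk precursor proteins under oestrogen during the breeding season, and in mice sex-dependent growth hormone release sets the level of many liver enzymes. A change that differs between males and females is an interaction of sex and time, which is measured less precisely than either change alone because it combines the error of all 4 groups.

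The values were raw read counts for 26479 Ensembl gene IDs, with totals from 17129400 to 28371289 counts per library. Levels are given below as CPM, counts scaled to the same total in each library, and changes as log2 values with library totals adjusted by TMM, where 1 stands for a 2-fold change. A call means an adjusted p under 0.05. Of the IDs, 14989 had enough counts to be tested and 2940 had 0 counts in all 16 libraries. The files pair no ID with a gene name, and 0 of them were found among 27148 genes of a RefSeq table, so genes are described by ID, position and group, and hepatocyte markers could not be looked up by name. Genes enriched in liver, as defined from the libraries of this same series, took 44.8% to 55.3% of the counts in 15 of the libraries and 39.1% in Midday male 1. Midday male 1 also stood apart in its correlation with the other 15 libraries (median Spearman rho 0.875, against 0.928 to 0.951), in its normalization factor (1.41, against 0.844 to 1.14) and in its share of skin-enriched genes (0.200%, against at most 0.0879%). The counts of calls over all genes and the counts without overlap are given with and without it. So are the medians of the day-night change that it moves, for liver-, testes- and ovary-enriched genes and for day-night genes of other tissues. For the remaining gene groups medians were not computed without it. These are whole-tissue samples, in which fewer cells of a type and less RNA per cell cannot be told apart.

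No gene passed the test for a change that differed between the sexes. With edgeR's quasi-likelihood test, 0 of 14989 genes (0%) had an adjusted p under 0.05, and the smallest adjusted p was 0.473. At an unadjusted p under 0.05 there were 893 genes, or 5.96%, of which 384 had the more positive change in males and 509 in females. DESeq2, a second count model, called 12 of the 14659 genes to which it gave a p (0.0819%). Of these, 8 had the more positive change in males and 4 in females. Its filtering left 5403 of the 14989 genes without an adjusted p, so those could not be called and the shares of the 2 models have unlike bases. All 12 had the same direction and an unadjusted p under 0.05 in edgeR. Leaving out each library in turn gave 0 calls in 15 of 16 fits and 1 without Midday male 4, described with its gene further on. Without Midday male 1, the library that stood apart, the count stayed at 0. The median standard error of the difference was 0.46 on the log2 scale, against 0.32 for the change within a sex. The 95% interval reached 0.97 to either side of the estimate in the median gene, and for 32.0% of genes the whole interval lay within 1 log2 unit of 0. For the other genes the interval does not exclude a difference of 2-fold or more.

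**Figure D1:**
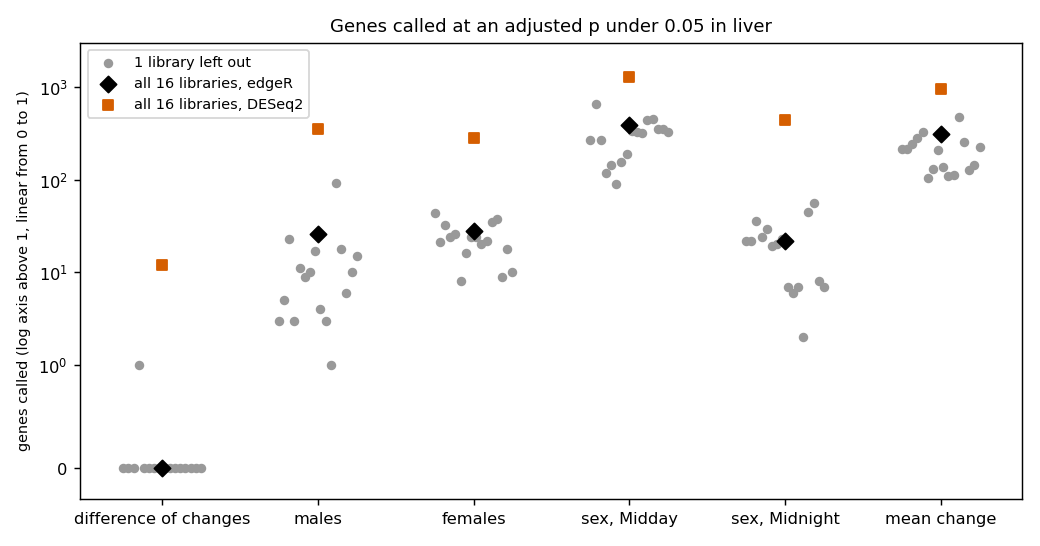
Number of genes called at an adjusted p under 0.05 in liver for the difference of the day-night changes, the change in males, the change in females, the sex difference at Midday and at Midnight, and the mean change of both sexes. Diamonds are edgeR with 16 libraries, squares DESeq2, and grey points edgeR with 1 library left out; the axis is logarithmic above 1 and linear from 0 to 1. The difference of the changes sits at 0 in edgeR and at 12 in DESeq2, and each of the other counts moves widely when 1 library is left out.

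The smallest p for a more positive change in males belonged to ENSACAG00000043928, on the forward strand of chr6:25852698-25855019 with 882 bases in 2 exon blocks. Its levels in Midday males were 73.6, 64.7, 29.6 and 45.6 CPM, and in Midnight males 75.6, 71.6, 70.6 and 77.1. In Midday females it stood at 65.2, 78.2, 85.1 and 51.6 CPM, and in Midnight females at 30.0, 33.7, 33.4 and 35.4. The Midnight males thus lay close together and above all Midnight females, Midday male 3 was the lowest of the 16 libraries, whereas the Midday groups overlapped, and in females the Midnight levels were below every Midday level. The log2 change was 0.72 ± 0.21 (SE) in males (adjusted p = 0.187, edgeR) and -1.03 ± 0.21 in females (adjusted p = 0.0678, edgeR). The difference of the changes was 1.74 ± 0.30 (95% interval 1.11 to 2.38), with an adjusted p of 0.473 in edgeR and 9.67e-05 in DESeq2. At Midnight alone the sexes differed by 1.30 ± 0.21 (adjusted p = 0.0286, edgeR), and at Midday by -0.44 ± 0.21 (adjusted p = 0.254, edgeR).

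The other gene taken by smallest p in this direction was ENSACAG00000035812 (chr4:93510368-93539558, forward strand, 5 exon blocks). Midday males held it at 14.8, 22.2, 20.2 and 17.3 CPM, and Midnight males at 17.9, 22.2, 30.4 and 43.5. Levels in Midday females were 27.6, 40.2, 18.2 and 19.2 CPM, and in Midnight females 5.62, 9.00, 9.06 and 5.61. The Midnight females were below all 12 other libraries, while the 2 male groups overlapped. The difference of the changes was 2.57 ± 0.48 (adjusted p = 0.519, edgeR; 4.50e-04, DESeq2), from a log2 change of 0.79 ± 0.34 in males (adjusted p = 0.299, edgeR) and -1.78 ± 0.35 in females (adjusted p = 0.0537, edgeR). The sex difference at Midnight was 2.09 ± 0.35 (adjusted p = 0.0286, edgeR).

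The ALAN livers gave a view of the male-female difference at night in animals that had no part in choosing these genes. For ENSACAG00000043928 the 4 ALAN males stood at 116, 90.3, 195 and 141 CPM and the 4 ALAN females at 38.8, 75.2, 63.3 and 47.3. For ENSACAG00000035812 ALAN males stood at 54.9, 18.2, 30.0 and 37.8 CPM and ALAN females at 10.6, 12.1, 17.7 and 13.8. In both genes every ALAN male was above every ALAN female, the same direction as at Midnight. How many of all genes separated the ALAN sexes in this way was not counted, so this lack of overlap cannot be weighed. The male minus female log2 difference was 1.35 ± 0.33 for ENSACAG00000043928 (adjusted p = 0.168, edgeR over the 8 ALAN livers) and 1.36 ± 0.31 for ENSACAG00000035812 (adjusted p = 0.148). In that fit 0 of 12982 genes (0%) were called, with 1645 at an unadjusted p under 0.05. The ALAN livers had smaller totals (12196415 to 14697867 counts) and a smaller share of even numbers among counts of 1 to 20 (41.1% to 44.0%, against 61.6% to 63.8% in the 16 libraries), so their CPM are compared only among themselves.

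In brain, eye and both skins, as in liver, the difference of the changes of these IDs did not pass the edgeR test. The difference of the changes of ENSACAG00000043928 was 0.24 ± 0.16 in brain (adjusted p = 0.718, edgeR) and 0.23 ± 0.14 in eye (adjusted p = 0.958). That of ENSACAG00000035812 was 0.06 ± 0.18 in brain (adjusted p = 0.951) and -0.04 ± 0.25 in eye (adjusted p = 0.993). In dorsal and ventral skin the difference of ENSACAG00000043928 was -0.13 ± 0.32 and -0.09 ± 0.33 (unadjusted p = 0.686 and 0.789, edgeR). For ENSACAG00000035812 it was 0.35 ± 0.64 and 0.96 ± 0.55 there (unadjusted p = 0.586 and 0.0994, edgeR). In ventral skin the log2 change of ENSACAG00000035812 was 1.18 ± 0.38 in males (adjusted p = 0.57, edgeR) and 0.21 ± 0.40 in females. Whether the liver differences exceed those of the other tissues was not tested.

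In the other direction, ENSACAG00000026252 (GL344122.1:47705-58868, forward strand, 6 exon blocks) was far higher in Midday male 2 and in 3 Midnight females than in the other libraries. Midday males held 17.6, 314.5, 1.66 and 12.8 CPM and Midnight males 0.497, 0.183, 0.852 and 0.107. Midday females held 4.26, 0.139, 0.247 and 0.300 CPM and Midnight females 145.5, 175.5, 0.918 and 232.3. The male groups did not overlap, with Midnight lower, and in females 3 Midnight animals were far above all Midday animals while Midnight female 3 was within their range. The fitted difference of the changes was -14.5 ± 2.77 (adjusted p = 0.519, edgeR; 1.81e-08, DESeq2). ALAN livers were as uneven, with ALAN male 3 at 386.5 CPM, ALAN female 3 at 62.1 and the other 6 between 0.0776 and 5.65. The male minus female log2 difference was 2.40 ± 2.32 in the ALAN livers (adjusted p = 0.695, edgeR). At Midnight it had the opposite sign, at -8.20 ± 2.05 (adjusted p = 0.116, edgeR). A gene on the opposite strand overlaps this one and had a fitted difference of -9.40 (unadjusted p = 2.65e-04, edgeR), and because the strand setting of the counting is not given, reads of the pair cannot be told apart.

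ENSACAG00000044444 (GL343599.1:179900-180865, reverse strand, 2 exon blocks) was low in males at night. Midday males stood at 5.83, 7.03, 12.4 and 19.4 CPM and Midnight males at 0.604, 1.69, 1.63 and 0.715. In females the levels were 2.28, 9.89, 3.25 and 6.97 CPM at Midday and 6.60, 12.0, 10.2 and 3.60 at Midnight. The Midnight males were below all 12 other libraries, and the female groups overlapped. The log2 change was -3.08 ± 0.61 in males (adjusted p = 0.0669, edgeR) and 0.58 ± 0.56 in females (adjusted p = 0.768, edgeR), a difference of -3.66 ± 0.83 (adjusted p = 0.809, edgeR; 0.00795, DESeq2). Among the ALAN livers, males stood at 2.71, 2.11, 2.57 and 3.23 CPM and females at 12.7, 1.72, 23.7 and 14.7, so 3 of 4 females were above all males and ALAN female 2 was below them (log2 difference -2.32 ± 0.69, adjusted p = 0.241, edgeR). This ID lies inside another gene on the opposite strand, whose own difference of the changes was 0.40 (unadjusted p = 0.175, edgeR).

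**Figure D2:**
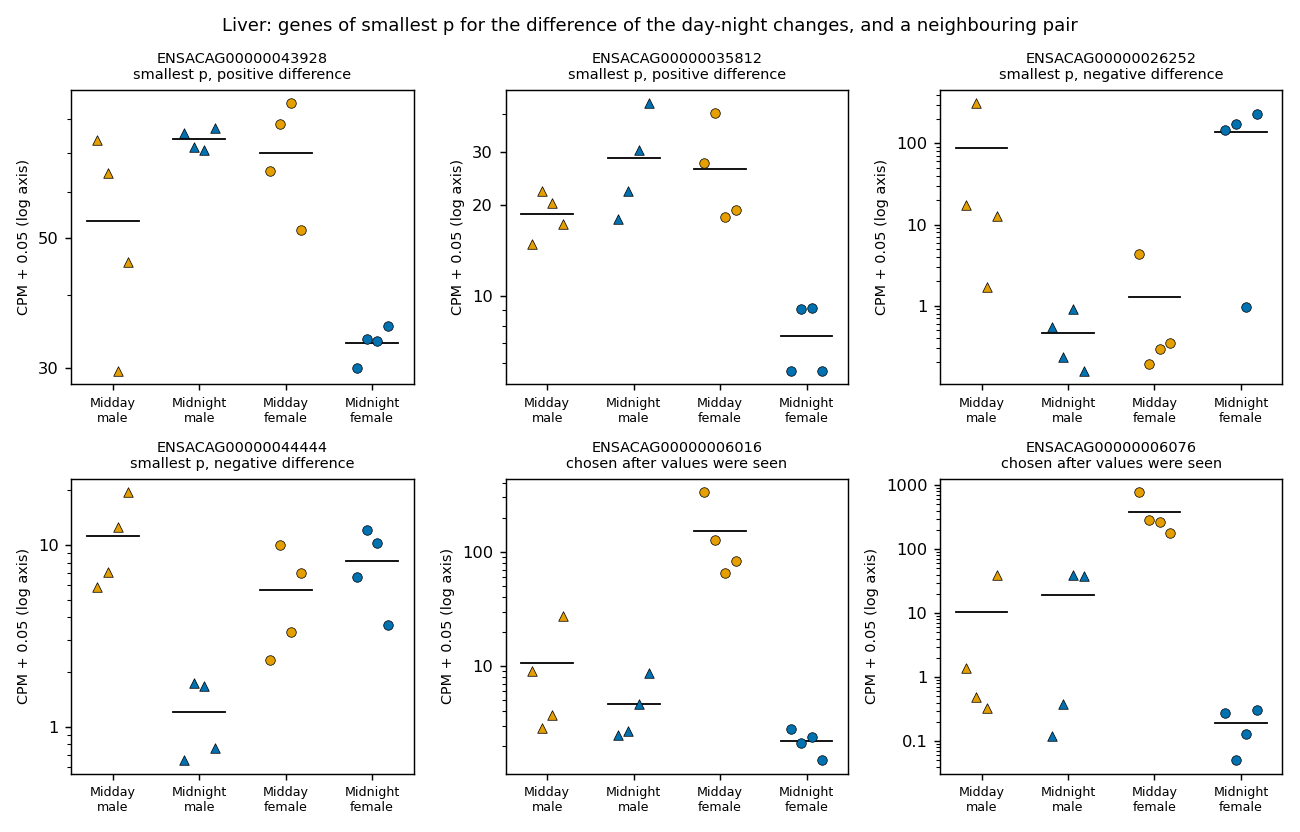
CPM plus 0.05 on a log axis in each of the 16 liver libraries for the 4 IDs taken by smallest p and the neighbouring pair chosen after their values were seen. Triangles are males, circles females, orange is Midday and blue Midnight; bars are group means of 4 animals. Midnight females form a separate low group for ENSACAG00000035812, for ENSACAG00000043928 they lie below all libraries but Midday male 3 (29.6 CPM), Midnight males form a separate low group for ENSACAG00000044444, and Midday females form a separate high group for ENSACAG00000006016 and ENSACAG00000006076.

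A pair of neighbouring genes, chosen after their values were seen, was high in Midday females alone among the 4 liver groups. ENSACAG00000006016 (GL343486.1:82595-92945, reverse strand) and ENSACAG00000006076 (GL343486.1:110270-120446, forward strand) lie 17324 bases apart, with no other listed gene between them. For ENSACAG00000006016 the Midday females stood at 332.4, 127.3, 65.2 and 83.4 CPM, and the Midnight females at 2.73, 2.07, 2.31 and 1.44. Midday males held 8.94, 2.83, 3.63 and 27.2 CPM and Midnight males 2.45, 2.64, 4.55 and 8.69. Each Midday female was above all 12 other libraries, and the male groups overlapped. This gene fell in females by 6.12 ± 0.83 on the log2 scale (adjusted p = 0.00725, edgeR), while its change in males was -1.02 ± 0.68 (adjusted p = 0.517, edgeR).

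The difference of the changes of ENSACAG00000006016 was 5.10 ± 1.00 (95% interval 2.96 to 7.24). Its adjusted p was 0.519 in edgeR and 6.66e-05 in DESeq2. Midday male 4, at 27.2 CPM, was the highest male, and without it the difference was 6.32 with an adjusted p of 0.0265 in edgeR, the single call made when a library was left out. At Midday the gene also differed between the sexes, by -3.86 ± 0.74 (male minus female, adjusted p = 0.018, edgeR), and at Midnight the difference was 1.25 ± 0.70 (adjusted p = 0.510, edgeR). In brain, eye and both skins the difference of the changes was negative, between -1.45 and -0.48 (unadjusted p from 0.0613 to 0.605, edgeR). The gene was not particular to liver, with means of 931 CPM in Midday testes and 144 CPM in Midday ovary.

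The levels of ENSACAG00000006076 were more uneven in males. Midday females stood at 769.3, 280.9, 265.2 and 177.5 CPM, and Midnight females held 15 counts in all, at 0.228, 0, 0.0798 and 0.252 CPM. Midday males stood at 1.31, 0.435, 0.282 and 39.8 CPM, and Midnight males at 0.0711, 0.330, 38.7 and 38.2. Midday females were above all other libraries, and 3 males, 1 at Midday and 2 at Midnight, stood between 38.2 and 39.8 CPM while the other 5 were at or under 1.31. The fitted change in females was -11.3 ± 2.45 (adjusted p = 0.0877, edgeR) and the difference of the changes 12.3 ± 2.82 (adjusted p = 0.809, edgeR; 9.67e-05, DESeq2). Fitted values of this size depend on the few counts at Midnight. The other 5 tested genes within 100000 bases of either gene had differences between -0.57 and 0.48, with unadjusted p values from 0.0865 to 0.849. Among the ALAN females, ENSACAG00000006076 stood at 325.8 CPM in ALAN female 2 and at 0.302 to 1.51 in the other 3, and ENSACAG00000006016 was also highest in that animal (28.6 CPM, against 2.26 to 2.49). Male minus female, the ALAN log2 difference of ENSACAG00000006016 was -0.22 ± 0.82 (adjusted p = 0.931, edgeR). That of ENSACAG00000006076 was -4.66 ± 2.25 (adjusted p = 0.431, edgeR). Outside liver, the difference of the changes of ENSACAG00000006076 was 0.60 ± 0.18 in brain (unadjusted p = 0.00452, adjusted p = 0.702, edgeR). In eye it was 0.71 ± 0.48 (unadjusted p = 0.159, adjusted p = 0.958, edgeR). In dorsal and ventral skin it was 0.89 ± 0.47 and 0.90 ± 0.87 (unadjusted p = 0.0761 and 0.321, edgeR).

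Within each sex, few genes passed the test, and with all 16 libraries most of those that did were lower at Midnight. In males 8 genes (0.0534%) were higher and 18 (0.120%) lower at Midnight. In females 4 genes (0.0267%) were higher and 24 (0.160%) lower. DESeq2 called 162 higher and 192 lower in males, and 98 and 185 in females. The males' count of 26 was 93 without Midnight male 4, of which 55 were higher and 38 lower. These 93 included 24 of the 26 genes, so the higher majority came from newly called genes. The males' count was 1, 3 and 4 without Midnight males 3, 2 and 1. Without Midday males 1, 2 and 4 it was 3, 5 and 3, and between 6 and 17 without each of 7 female libraries, which share the estimate of the spread with the males. The females' count of 28 was 44 without Midday male 1, 8 and 16 without Midday females 2 and 3, and 9, 18 and 10 without Midnight females 2, 3 and 4. The counts therefore give no order of the sexes.

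The genes called in either sex moved the same way in the other. All 26 genes called in males had the same direction in females, 21 of them at an unadjusted p under 0.05, and their median absolute log2 change was 1.81 in males and 0.92 in females. All 28 genes called in females had the same direction in males, 20 at an unadjusted p under 0.05, with medians of 1.92 in females and 1.16 in males. Genes selected in a sex are expected to look larger in it, so the smaller value in the other sex is no measure of a weaker response. Over all 14989 genes, 60.9% had the same direction in both sexes. The overlap was 6 genes, all lower at Midnight, which is 23.1% of the males' and 21.4% of the females' calls. Across all genes the Pearson correlation of the male and female changes was 0.13 and Spearman's rho 0.24, and Pearson's r was 0.68 over the 48 genes called in either sex. These describe genes within 1 set of libraries, and genes are not independent replicates.

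**Figure D3:**
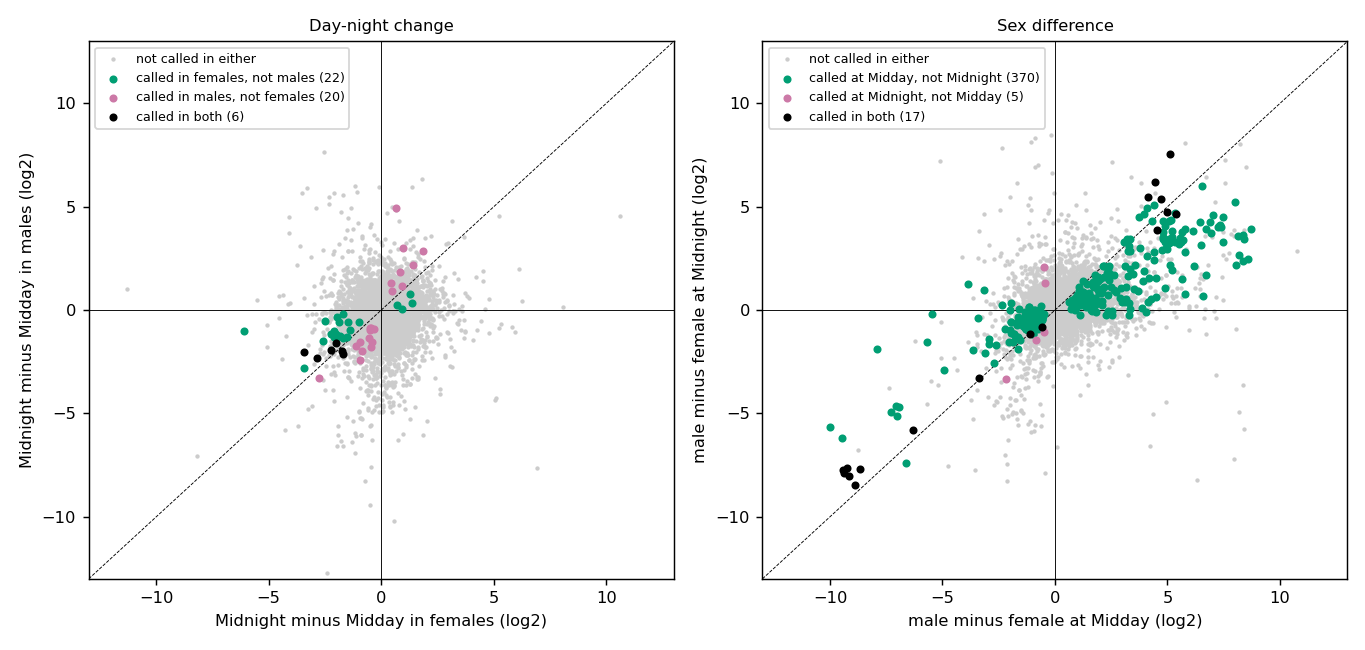
Left, log2 change from Midday to Midnight in females (horizontal) and males (vertical) for the 14989 genes tested; right, male minus female log2 difference at Midday (horizontal) and at Midnight (vertical). Each point is a gene, coloured points were called at an adjusted p under 0.05 (edgeR), and the dashed line marks equal values. The 6 genes called in both sexes lie at the lower left of the left plot. Genes called for sex at Midday mostly keep their direction at Midnight with values nearer to 0, which selecting them at Midday favours.

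ENSACAG00000012009 was the clearest of the genes that fell in both sexes (GL343207.1:1680007-1681252, forward strand, 3 exon blocks). Midday males stood at 55.3, 39.1, 69.4 and 33.0 CPM and Midnight males at 8.24, 7.59, 10.7 and 7.11. Midday females stood at 34.1, 37.9, 78.4 and 44.3 CPM and Midnight females at 7.78, 4.94, 7.14 and 6.83. All 8 Midnight libraries were below all 8 Midday libraries. The gene fell with a log2 change of -2.30 ± 0.28 in males (adjusted p = 0.00713, edgeR) and of -2.83 ± 0.29 in females (adjusted p = 8.80e-04, edgeR). The difference of the changes was 0.53 ± 0.39 (95% interval -0.29 to 1.35; adjusted p = 0.845, edgeR). It also fell in brain, with log2 changes of -1.32 ± 0.27 in males and -1.59 ± 0.27 in females (adjusted p = 0.0386 and 0.0163, edgeR). In eye the changes were -2.25 ± 0.51 in males and -2.66 ± 0.52 in females (adjusted p = 0.0624 and 0.0546, edgeR). In dorsal skin they were -1.88 in males and -2.72 in females (adjusted p = 0.163 and 0.029, edgeR). Ventral skin gave -1.59 in males and -2.05 in females (adjusted p = 0.523 and 0.134, edgeR). In the ALAN livers this gene stood at 34.2, 85.7, 78.6 and 60.8 CPM in males and at 19.3, 16.2, 23.3 and 6.12 in females. There every male was above every female (log2 difference 2.05 ± 0.54, adjusted p = 0.197, edgeR), unlike at Midday and Midnight, where the sexes overlapped. The share of all genes with such a separation in the ALAN livers was not counted.

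ENSACAG00000012823 fell in both sexes as well (chr5:15251715-15309416, reverse strand, 18 exon blocks). Midday males stood at 122.9, 97.2, 58.7 and 95.3 CPM and Midnight males at 28.8, 28.0, 25.4 and 22.0. Midday females stood at 176.2, 93.0, 111.2 and 128.9 CPM and Midnight females at 33.4, 22.8, 42.1 and 24.4. Midday and Midnight did not overlap in either sex. The gene fell with a log2 change of -1.59 ± 0.25 in males (adjusted p = 0.027, edgeR) and of -2.03 ± 0.25 in females (adjusted p = 0.00304, edgeR), and the difference of the changes was 0.43 ± 0.35 (adjusted p = 0.863, edgeR). The males' call did not hold without any 1 of Midday males 1, 2 and 4 or Midnight males 1, 2 and 3 (adjusted p from 0.059 to 0.103), although the change stayed between -1.50 and -1.65, nor with all 24 liver libraries in the fit (adjusted p = 0.133, edgeR). In brain it fell as well, with log2 changes of -0.50 ± 0.08 in males and -0.52 ± 0.08 in females (adjusted p = 0.00739 and 0.00918, edgeR). In eye the changes were -0.06 ± 0.17 in males and -0.10 ± 0.17 in females (adjusted p = 0.87 and 0.918, edgeR). In dorsal and ventral skin they were -0.11 and -0.23 in males and -0.41 and -0.65 in females (adjusted p from 0.815 to 0.993, edgeR).

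**Figure D4:**
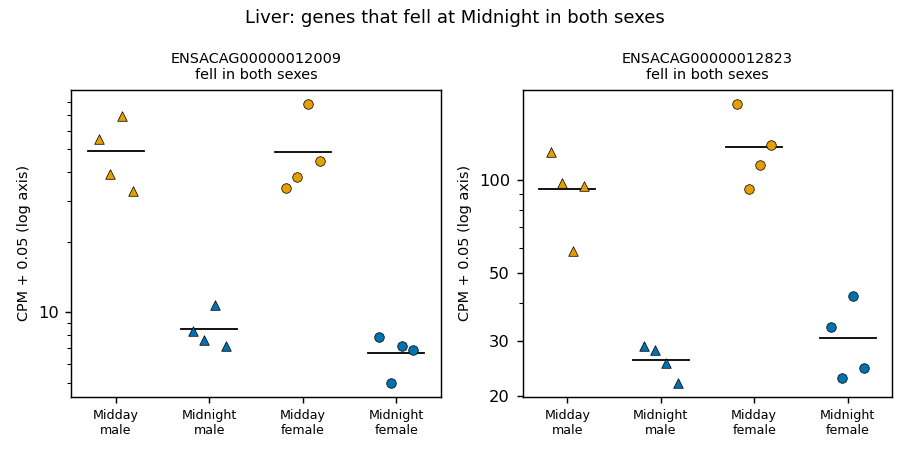
CPM plus 0.05 on a log axis in each of the 16 liver libraries for the 2 named IDs that fell at Midnight in both sexes. Symbols and colours are as in the plot of the other named IDs, and bars are means of 4 animals. Midday and Midnight do not overlap in either sex, and within a time the males and females do.

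When the changes of both sexes were averaged, so that all 16 libraries bore on 1 value, 121 genes were higher (0.807%) and 191 lower (1.27%) at Midnight. All 312 had the same direction in both sexes, which averaging favours. Their median absolute log2 change was 0.97 in males and 0.90 in females, and the larger change was the males' in 156 genes and the females' in 156. For the difference of the changes 37 of these 312 genes (11.9%, against 5.96% of all genes) had an unadjusted p under 0.05 and 0 had an adjusted p under 0.05 (edgeR). The count of 312 was 214 without Midday male 1, 475 without Midnight male 4, 138, 109 and 113 without Midnight males 1, 2 and 3, 105 and 131 without Midday females 2 and 3, and 127 and 142 without Midnight females 2 and 3.

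Genes whose 4 Midnight and 4 Midday libraries did not overlap were counted with no model, on log2 CPM adjusted by TMM. In males 385 genes (2.57%) were wholly higher at Midnight and 570 (3.80%) wholly lower, and in females 547 (3.65%) were wholly higher and 530 (3.54%) wholly lower. In both sexes 49 genes were wholly higher and 83 wholly lower. Opposite changes without overlap were seen in 3 genes, with 2 (0.0133%) higher in males and lower in females and 1 (0.00667%) lower in males and higher in females. These counts depended on the scaling. On CPM of the library total, 157 genes were wholly higher and 1035 wholly lower in males, against 476 and 522 in females. On that scale 21 were wholly higher and 137 wholly lower in both sexes, and opposite changes were seen in 0 genes higher in males and 4 lower in males. Without Midday male 1, which makes a lack of overlap easier to reach, the males' counts adjusted by TMM were 610 higher and 856 lower, with 3 and 6 genes of opposite changes. Without it and on CPM of the library total they were 405 and 1165, with 1 and 4.

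More genes were called for a sex difference at Midday than at Midnight. At Midday 387 genes (2.58%) were called, 191 higher in males and 196 higher in females, and at Midnight 22 genes (0.147%), 9 higher in males and 13 higher in females. DESeq2 called 1279 at Midday and 442 at Midnight. The test of whether a sex difference changed between Midday and Midnight is the same as the test of the difference of the day-night changes, in which edgeR called 0 genes, so a call at Midday and none at Midnight does not show that the sex difference of that gene changed. Of the 387 genes called at Midday, 366 (94.6%) had the same direction at Midnight, 240 with an unadjusted p under 0.05. Their median absolute log2 difference was 1.66 at Midday, and their median Midnight difference, counted as positive in the Midday direction, was 0.70. Of the 22 genes called at Midnight, 17 (77.3%) were also called at Midday in the same direction. Their median absolute difference was 5.07 at Midnight, and their median Midday difference, counted as positive in the Midnight direction, was 4.62. Genes selected at a given time are expected to look larger then. The smaller value at the other time is therefore no measure of a weaker difference. The Midday and Midnight differences use separate animals, and over all genes Pearson's r between them was 0.45 and Spearman's rho 0.42.

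The counts of sex-called genes also moved with single libraries. The Midday count was 650 without Midday male 2, 119 without Midday male 4, and 143, 90, 155 and 189 without Midday females 1 to 4, and without Midday male 1 it was 265. The Midnight count was 36 without Midday male 3, 7, 6, 7 and 2 without Midnight males 1 to 4, and 45, 56, 8 and 7 without Midnight females 1 to 4. Without Midday male 1, 174 of its 265 genes were higher in males, and without Midnight female 2, 42 of the 56 Midnight genes were. The lowest Midday count, 90, was above the highest Midnight count, 56. These fits share most of their libraries, and whether the counts differ between the times was not tested. The median standard deviation between animals was 0.45 log2 CPM in Midday males (0.36 without Midday male 1), 0.39 in Midday females, 0.37 in Midnight males and 0.39 in Midnight females.

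Gene groups that use no liver day-night value are described here by counts and medians only. The body-wide day-night genes were those called for the mean change of both sexes in at least 2 of brain, eye, dorsal skin and ventral skin, which came from the same animals as the livers. Of 12 night-high genes tested in liver, 0 were called in either sex (edgeR). Of all genes 0.0534% were called higher in males and 0.0267% in females, so 0 of 12 tells little. Of 43 night-low genes, 3 were called lower in males (0.120% of all genes were) and 5 in females (0.160% of all genes), and 0 were called higher in either. The mean log2 change of the night-high genes was 0.65 in males and 0.95 in females, and that of the night-low genes -0.58 and -0.46. Medians were 0.35 and 0.51 for the night-high genes and -0.35 and -0.02 for the night-low genes, against -0.03 in males and 0.03 in females over all genes. Over all alternatives the night-high medians ranged from 0.18 to 0.35 in males and from 0.26 to 0.53 in females, with the lowest values without Midnight male 2 and without Midnight female 1, and the night-low median in females from -0.10 to -0.02. The males' night-low median was -0.14 without Midday male 1 and -0.22 without Midday male 3. By any amount, 28 of 43 night-low genes fell in males and 23 in females, while 15 and 20 rose. Over all 14989 genes 7115 rose in males and 7934 in females. The fall of that list thus rested on a part of its genes.

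A score per animal, the mean log2 CPM of the 12 night-high genes minus that of the 43 night-low genes, separated day from night in both sexes. It was -3.63, -4.04, -3.92 and -2.97 in Midday males and -2.28, -2.55, -2.22 and -2.38 in Midnight males. In females it was -3.47, -3.63, -3.74 and -3.80 at Midday and -2.68, -1.98, -1.97 and -2.33 at Midnight. Neither sex showed an overlap, and Midday male 4 came nearest to the night values. The Midnight minus Midday difference was 1.28 in males and 1.42 in females, and in males it was 1.29 without Midday male 1. The males' difference minus the females' was -0.13, smaller in size than the standard deviation of the score in Midday males (0.48) or Midnight females (0.34).

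**Figure D5:**
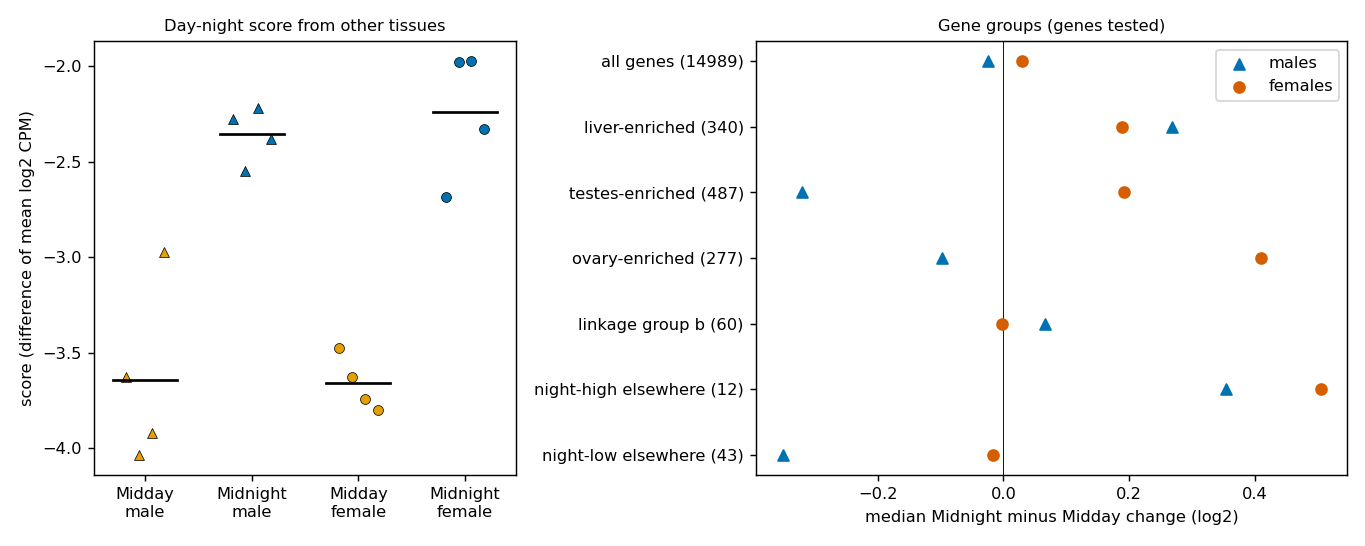
Left, the day-night score (mean log2 CPM of 12 night-high minus 43 night-low genes of other tissues) in each liver library, with bars for means of 4 animals; right, median log2 change from Midday to Midnight in males (triangles) and females (circles) for gene groups, with the number of genes tested. Day and night scores do not overlap in either sex, and the medians of testes-enriched and ovary-enriched genes lie below 0 in males and above 0 in females, although that of ovary-enriched genes in males is 0.03 without Midday male 4 and that of testes-enriched genes in females is -0.02 without Midnight female 2.

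Genes enriched in a tissue of this series shifted by small amounts. Over all genes 0.0534% were called higher and 0.120% lower at Midnight in males, and 0.0267% and 0.160% in females. Counts of 0 or 1 calls in the lists below therefore tell little about them. The 340 liver-enriched genes tested had a median log2 change of 0.27 in males and 0.19 in females, with 0 called higher in either sex, 0 lower in males and 1 lower in females. The males' median was 0.10 without Midday male 1, the library with the smallest liver-enriched share, and the females' was 0.09 without Midday female 3 and 0.30 without Midday female 4. The 487 testes-enriched genes tested had medians of -0.32 in males and 0.19 in females, with 0 called in either sex, and 45 of them (9.24%) had an unadjusted p under 0.05 for the difference of the changes, 36 negative and 9 positive. Over all genes that share was 5.96%, with 509 negative and 384 positive. It was 4.41% of liver-enriched genes, and 14.1%, 6.85% and 4.12% of 71 brain-, 73 eye- and 97 skin-enriched genes tested. The testes-enriched median in males was -0.33 without Midday male 1, -0.52 without Midnight male 4 and -0.16 when genes averaging under 1 CPM were left out. In females it turned to -0.02 without Midnight female 2, and was 0.05 with no filter on low counts and 0.03 with a mean of at least 1 CPM. The 277 ovary-enriched genes tested had medians of -0.10 and 0.41, with 1 called higher in males, and 27 (9.75%, against 5.96% of all genes) had an unadjusted p under 0.05, 20 negative and 7 positive. The males' ovary-enriched median turned to 0.03 without Midday male 4, and was -0.15 without Midday male 2, -0.37 without Midnight male 4 and -0.02 with a mean of at least 1 CPM. The females' was 0.26 without Midnight female 1. Testes-enriched genes held 0.173% to 0.279% and ovary-enriched genes 0.0796% to 0.171% of the counts of a library, with the highest shares in Midday male 1 and in Midnight female 1. The part of these libraries in the shifts of the lists was not tested beyond leaving each out. Brain-, eye- and skin-enriched genes had medians of 0.08, -0.08 and 0.06 in males and 0.37, 0.28 and 0.19 in females. Their median difference of the changes was -0.18, -0.19 and -0.37. It was -0.38 for testes-enriched, -0.44 for ovary-enriched and 0.05 for liver-enriched genes, against -0.05 over all genes. A negative median was thus not particular to testes- and ovary-enriched genes.

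Sex differences of the tissue-enriched lists and of linkage group b are given next. Their medians were not computed without Midday male 1, which had the highest shares of skin-, eye- and testes-enriched genes. Of the 487 testes-enriched genes tested, 101 were called for sex at Midday and 7 at Midnight, where 2.58% and 0.147% of all genes were. Their median male minus female log2 difference was 0.92 and 0.54, against 0.06 and 0.02 over all genes. Skin-, brain- and eye-enriched genes had medians of 0.60, 0.49 and 0.42 at Midday and 0.22, 0.26 and 0.18 at Midnight. Liver-enriched genes had medians of 0.02 and 0.16, and ovary-enriched genes of -0.14 and -0.34. Of 340 liver-enriched genes 23 were called at Midday and 6 at Midnight. Of 71 brain-, 97 skin-, 73 eye- and 277 ovary-enriched genes 4, 1, 0 and 5 were called at Midday and 0 at Midnight. Linkage group b, known as the X chromosome of this species, had 60 genes tested, of which 13 were called for sex at Midday and 1 at Midnight (again against 2.58% and 0.147% of all genes), with medians of -0.23 and -0.06. For the day-night change, 0 of these 60 genes were called in either sex (edgeR). For the difference of the changes 2 had an unadjusted p under 0.05 (3.33%, against 5.96% of all genes). The 14 mitochondrial genes tested had median day-night changes of 0.21 in males and 0.13 in females, with 0 called in either sex. These were not computed without Midday male 1, the library with the largest share of mitochondrial counts (3.12%). Over all genes 0.0534% were called higher and 0.120% lower at Midnight in males, and 0.0267% and 0.160% in females. Counts of 0 in lists of 60 or 14 genes therefore tell little.

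The same contrast was fitted in brain and eye, which have both sexes and both times with 4 animals per group. In brain 1 of 16842 genes was called (0.00594%), with 1164 at an unadjusted p under 0.05 and 2 called by DESeq2. The call was lost in 12 of 16 fits that left out a library. In eye 0 of 16228 genes were called (0%), with 742 at an unadjusted p under 0.05 and 2 called by DESeq2. The median standard error of the difference was 0.22 in brain and 0.29 in eye, smaller than the 0.46 of liver. Whether liver differs from these tissues in the contrast was not tested.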

How the data were processed

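The deposited table holds raw counts of reads per Ensembl gene ID with coordinates and exon lengths, and coordinates are printed as the authors' table gives them. Tools named per the submitters' processing notes were STAR 2.7.11a, Trimmomatic, FastQC, Subread and featureCounts, with no roles. Genome build, annotation, strand setting and the treatment of reads with several matches: not given in the sources used here. Genes were tested with edgeR 4.0.16 in R 4.3.3 on the 16 libraries: filterByExpr on the 4 groups, TMM, robust quasi-likelihood fits with a mean per group and Benjamini-Hochberg adjustment over all genes tested, with calls at an adjusted p under 0.05. All contrasts came from this fit. DESeq2 1.42.0 was run with its default filtering, and 5403 of its adjusted p values for the difference of the changes were not given. The scripts were tested on simulated data.

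The lists of gene symbols and cell markers planned for this work could not be used, because no ID was paired with a name. Named IDs were, by rule, at most 2 per direction by smallest p for the difference of the changes and at most 2 per direction called in both sexes, with a mean of at least 1 CPM; no gene rose in both sexes. Tissue-enriched genes averaged 5 CPM or more over their tissue's libraries and exceeded every other tissue 8-fold. A library stood apart when its median Spearman correlation fell over 5 median absolute deviations below the median. The lists for sex differences in ALAN livers held 0 genes. The comparison, members and lists were chosen with earlier results of these data known. Figures were drawn with matplotlib 3.10.9.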

Additional observations from a re-analysis of the deposited data

Results flagged for a closer look

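By Dixon's ratio at its 95% critical value, a single library lay far from the other 3 in 10 of 72 sets of 4 values. The 1 in 20 that this critical value allows holds for independent, normally distributed values. Many sets were unlogged CPM of genes picked by p or after their values were seen, so the count cannot be set against chance. In Midday male 2 ENSACAG00000026252 stood at 314.5 CPM, where the next Midday male was at 17.6. In Midday female 1 it stood at 4.26 CPM (next 0.300), in ALAN male 3 at 386.5 (next 5.65) and in ALAN female 3 at 62.1 (next 4.38). ENSACAG00000006076 stood at 39.8 CPM in Midday male 4 (next 1.31), at 8.10 in ALAN male 4 (next 1.24) and at 325.8 in ALAN female 2 (next 1.51). ENSACAG00000006016 stood at 28.6 CPM in the same ALAN female 2 (next 2.49). The normalization factor of Midday male 1 was 1.41, against 0.995 for the next Midday male. Ovary-enriched genes took 0.171% of the counts in Midnight female 1 and 0.106% in the next Midnight female.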

How the results depend on the processing

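With size factors by RLE or without the robust option no count moved by over 1.5 times, and with a mean of at least 1 CPM none did either. DESeq2 moved each count: 12 genes for the difference of the changes, 354 in males, 283 in females, 1279 and 442 for sex at Midday and Midnight, 950 for the mean change, and 2 each in brain and eye. Without a filter on low counts 13 genes were called in males, 242 for sex at Midday and 197 for the mean change. With all 24 liver libraries in the fit 7 were called in males and 40 for sex at Midnight. With the replicate block there were 0 for the difference of the changes, 5 in males, 19 in females, 277 and 8 for sex at Midday and Midnight and 190 for the mean change. The replicate numbers share only a number: deviations of same-numbered libraries correlated between -0.18 and 0.01 in males and between -0.10 and 0.04 in females. With 1 library left out the counts ranged from 0 to 1 for the difference of the changes, 1 to 93 in males, 8 to 44 in females, 90 to 650 and 2 to 56 for sex, 105 to 475 for the mean change, 0 to 1 in brain and 0 to 0 in eye. The cause of these movements was not tested. For the named IDs, 11 values under 253 alternatives kept their direction, 7 gained a call and 8, all of ENSACAG00000012823 in males, lost it, the replicate block (adjusted p = 0.0685) among them. Midnight levels of ENSACAG00000006076 in females rest on 15 counts, and fitted values against them have no firm size. The settings for the mean change, the gene groups, brain and eye were chosen after seeing the data.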
